A study of Homo sapiens with 9 samples.

Results

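Growth-factor and contact signalling at the cell surface was followed through 52 genes: 30 receptor tyrosine kinases outside the Eph family, 13 Eph receptors, 8 ephrins and NGFR. They were chosen by symbol with earlier results of these data known, so their counts do not stand for all receptors of the kind. All 52 were among the 35762 gene symbols of the deposited table, and 45 of them had enough counts to be tested. The cells were TYUC-1, a human cancer cell line from a neuroendocrine carcinoma of the esophagus, grown in suspension with serum. RNA was taken on day 0, day 3 and day 6 of exposure to EPZ-6438, an inhibitor of the histone methyltransferase EZH2, the enzyme that places the repressive mark H3K27me3. Each day had 3 libraries labelled as biological replicates, all 9 carry EPZ-6438 as their treatment, and the treatment protocol names 2 uM EPZ-6438 or DMSO. The labels do not say whether the day 0 cells were given DMSO. No vehicle library of a later day was used here, so the drug and the time in culture cannot be told apart. The model is a single cell line, and p-values measure the spread between these libraries.

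Receptor tyrosine kinases span the membrane once, bind a secreted or membrane-bound ligand outside the cell, and phosphorylate each other and adaptor proteins inside it, which feeds the RAS-MAPK and PI3K-AKT cascades. Eph receptors are the largest family of these kinases and bind ephrins on neighbouring cells. A-type ephrins are held by a lipid anchor and B-type ephrins cross the membrane, and both receptor and ephrin can signal in the cell that carries them. NGFR, the p75 neurotrophin receptor, has no kinase domain. It works with the NTRK receptors and marks neural crest derivatives and basal cells of stratified epithelia, including that of the esophagus.

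By day 6 most of these genes stood higher than on day 0, and the widest changes were in genes that were silent or nearly so at the start: EGFR, NGFR, EPHA8, EPHB6 and ERBB4. The most abundant receptors on day 0, KIT, FGFR3, MET and ERBB3, had fitted log2 fold changes between -0.10 and 0.28 on day 6 against day 0, and of these KIT alone passed the test. EPHA3 and EFNB2 fell. With the quasi-likelihood test of edgeR and Benjamini-Hochberg adjustment over all 15345 genes tested, at a threshold of 0.05, 35 of the 45 tested members rose and 2 fell on day 6 against day 0. In the same comparison 28.9% of all genes tested rose and 25.7% fell (54.6% called in all). On day 3 against day 0, 26 members rose and 1 fell, while 22.5% of all genes tested rose and 18.1% fell (40.6% called in all). On day 6 against day 3, 15 rose and 1 fell, beside 11.5% and 4.76% of all genes tested (16.3% called in all). The median log2 fold change of the tested members was 0.66 on day 3 against day 0 and 1.06 on day 6 against day 0, where that of all genes tested was 0.01 both times. It was 0.28 on day 6 against day 3, against -0.00 over all genes tested. The rise did not extend to the 15 receptor tyrosine kinases left out of the list. Of these 8 were tested, and 1 rose and 1 fell on day 6 against day 0, with a median log2 fold change of 0.03. Of the 45 tested members, 36 had libraries that did not overlap between day 6 and day 0, beside 58.7% of all genes tested. For 30 of these 45 day 3 and day 0 did not overlap (53.8% of all genes tested), and for 29 day 6 and day 3 (43.5%).

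A member that is near 0 on day 0 could enter the test only by being higher later, and 13 of the 45 entered that way (EGFR, ERBB4, FGFR2, PDGFRB, FLT3, AXL, MERTK, NGFR, LTK, EPHA7, EPHA8, EPHA10 and EPHB6). Among the 32 members that reached the count minimum in all 3 day 0 libraries, 23 rose and 2 fell on day 6 against day 0. Of the 13348 genes that did so, 24.3% rose and 29.5% fell. On day 3 against day 0, 17 of these 32 rose and 1 fell, beside 19.8% and 20.8% of those genes. The summed level of the 52 members was 1421 to 1494 CPM in day 6 libraries and 1285 to 1329 CPM in day 3 libraries, against 1040 to 1137 CPM in day 0 libraries. CPM is the count divided by the TMM-scaled library total and scaled up to counts per 1e6. Libraries held 21638874 to 31235055 estimated counts. In bulk RNA, more cells that express a gene and more RNA per cell cannot be told apart.

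**Figure D1:**
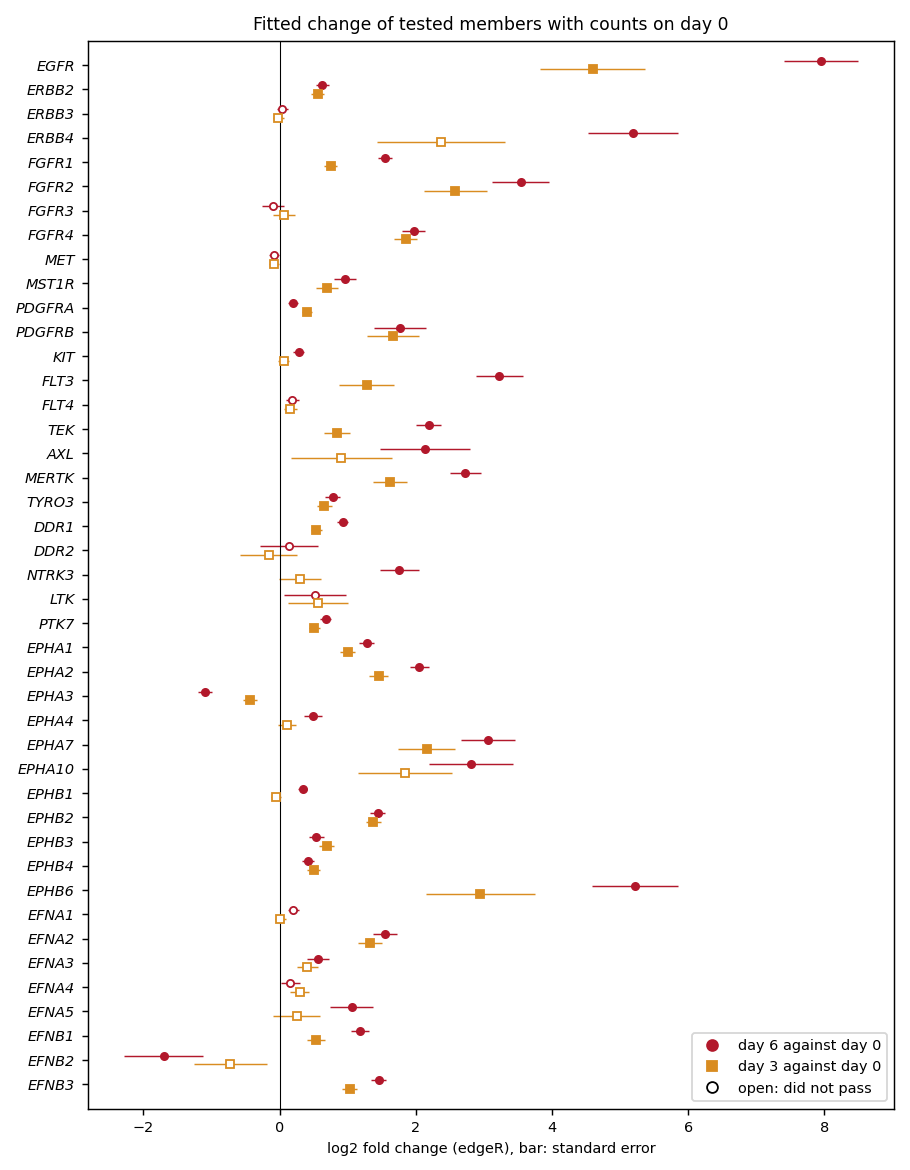
Log2 fold change (x axis, edgeR) of the 43 tested members that had counts on day 0, for day 6 against day 0 (circles) and day 3 against day 0 (squares), with bars for the standard error and open symbols for members that did not pass the adjusted p threshold of 0.05. NGFR and EPHA8, which had no count on day 0, are left out, and the wide bars of EGFR, ERBB4 and EPHB6 rest on 1 or 2 pooled counts on day 0. EPHA3, EFNB2 and MET lie left of the line at 0 on both days, MET only at -0.08 and without passing.

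The order in time differed between members. Of the 45 tested, 12 rose on day 3 and again between day 3 and day 6 (EGFR, FGFR1, FLT3, TEK, MERTK, DDR1, NGFR, EPHA2, EPHA8, EPHB6, EFNB1 and EFNB3). Another 14 rose on day 3 against day 0 and were higher on day 6 than day 0 without a further call between day 3 and day 6 (ERBB2, FGFR2, FGFR4, MST1R, PDGFRA, PDGFRB, TYRO3, PTK7, EPHA1, EPHA7, EPHB2, EPHB3, EPHB4 and EFNA2). ERBB4, NTRK3 and EPHB1 passed on day 6 against both earlier days but not on day 3 against day 0. KIT, AXL, EPHA4, EPHA10, EFNA3 and EFNA5 passed on day 6 against day 0 only. The other 8 tested members passed in no comparison (ERBB3, FGFR3, MET, FLT4, DDR2, LTK, EFNA1 and EFNA4). These groups rest on which side of the threshold a value fell, and day 0 replicate 2 stood apart from its group. The mean chi-square per gene of its counts was 55.6 against replicate 1 and 47.7 against replicate 3 of day 0, which themselves differed by 4.94. Without day 0 replicate 2, FGFR2, KIT, EPHA1, EPHA4 and EPHA7 also rose and PDGFRA fell on day 6 against day 3, which made 22 calls against 16, while 30% of all genes tested were then called.

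**Figure D2:**
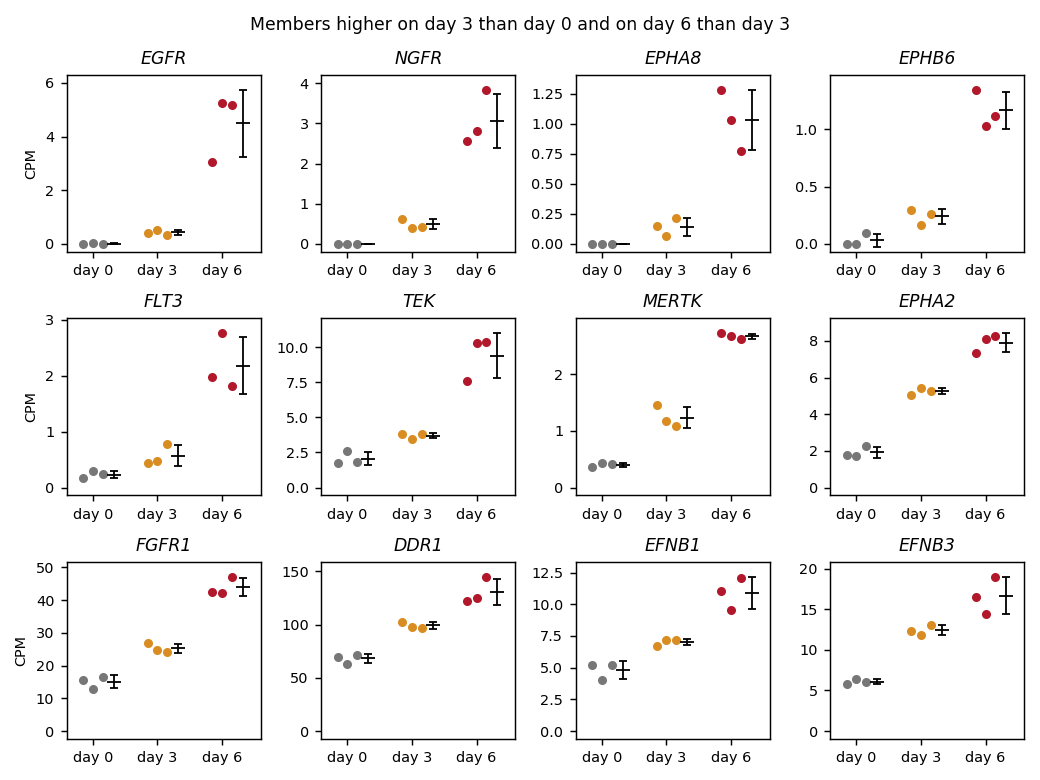
Level in CPM (y axis, linear, own scale per gene) in each of the 3 libraries of day 0, day 3 and day 6, with mean and SD beside the points, for the 12 members that rose on day 3 against day 0 and again on day 6 against day 3. In each panel the 3 day 6 libraries lie above the 3 day 3 libraries, and those above the 3 day 0 libraries.

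The ERBB family binds EGF-like ligands and neuregulins. EGFR (chr7:55019021-55211628, plus strand, GRCh38), the receptor of EGF and TGF-alpha, had 0, 0.0425 and 0 CPM on day 0 and 0.410, 0.535 and 0.348 CPM on day 3. On day 6 EGFR had 3.06, 5.26 and 5.17 CPM. Its counts pooled over 3 libraries were 1 on day 0, 35 on day 3 and 333 on day 6. The pooled ratio to day 0 was 330, 95% interval 58.8 to 13060 on day 6, and 33.1, 95% interval 5.56 to 1345 on day 3, with exact Poisson intervals that cover counting error only. Every day 6 library stood above every day 3 library, and the call held on each pair of days (adjusted p = 2.78e-07 on day 6 against day 0, 0.000734 on day 3 against day 0 and 2.28e-05 on day 6 against day 3). ERBB4, a neuregulin receptor, was also nearly silent at the start, with pooled counts of 1 on day 0, 7 on day 3 and 50 on day 6, a day 6 to day 0 ratio of 49.5, 95% interval 8.49 to 1994 (adjusted p = 4.25e-05). On day 3 against day 0 ERBB4 did not pass (adjusted p = 0.0674, 0.0429 to 0.183 over 14 alternative settings, and 0.0429 without day 0 replicate 1). ERBB2, which has no ligand of its own and pairs with the other members, had 66.0, 54.6 and 67.8 CPM on day 0 and 97.7, 90.6 and 89.6 CPM on day 3. On day 6 ERBB2 had 94.4, 90.2 and 107 CPM. The later libraries lay above all day 0 libraries (log2 fold change 0.63, SE 0.10, adjusted p = 0.000179 on day 6 against day 0), and day 6 and day 3 overlapped. ERBB3, the neuregulin receptor whose kinase is nearly inactive, had 142, 123 and 150.0 CPM on day 0 and 139.5, 138 and 132 CPM on day 3. On day 6 ERBB3 had 137, 140.2 and 149.7 CPM, and its days overlapped with a fitted log2 difference of 0.04 (SE 0.08) on day 6 against day 0. Per kilobase of exon ERBB3 stayed the most abundant of the family, at 15.7 ± 0.735 CPM per kilobase on day 6 and 15.3 ± 1.52 on day 0 (SD, n = 3), while EGFR reached 0.359 ± 0.0993 on day 6.

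The FGF receptors bind fibroblast growth factors together with heparan sulphate. FGFR1 had 15.7, 12.8 and 16.6 CPM on day 0 and 26.8, 24.9 and 24.2 CPM on day 3. On day 6 FGFR1 had 42.5, 42.3 and 47.1 CPM, with no overlap between any days (log2 fold change 1.55, SE 0.10, adjusted p = 2.03e-07 on day 6 against day 0). FGFR2 had 0.0327, 0.170 and 0.141 CPM on day 0 and 0.671, 0.602 and 0.739 CPM on day 3. On day 6 FGFR2 had 1.51, 1.03 and 1.33 CPM, and its pooled counts were 8 on day 0, 53 on day 3 and 100 on day 6. That is a day 6 to day 0 ratio of 12.4, 95% interval 6.04 to 29.5 (adjusted p = 2.74e-05). FGFR4, the receptor through which FGF19 acts in liver, had 1.53, 2.13 and 1.505 CPM on day 0 and 5.93, 6.42 and 6.26 CPM on day 3. On day 6 FGFR4 had 6.73, 5.73 and 7.71 CPM. Its step came by day 3 (log2 fold change 1.85, SE 0.17, adjusted p = 1.1e-05 against day 0), and day 6 overlapped with day 3. FGFR3, the most abundant of the 4 per kilobase on day 0, had 96.9, 60.9 and 99.97 CPM on day 0 and 90.4, 94.6 and 86.2 CPM on day 3. On day 6 FGFR3 had 80.2, 71.1 and 89.5 CPM. Day 0 replicate 2 was the low one, and all 3 days overlapped (adjusted p = 0.621 on day 6 against day 0). The range of that adjusted p was 0.00601 to 0.987 over 16 alternative settings, and without day 0 replicate 2 FGFR3 was lower on day 6 than day 0 (adjusted p = 0.00601).

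MET, the receptor of hepatocyte growth factor, had 110.3, 110.5 and 107 CPM on day 0 and 108, 103 and 98.9 CPM on day 3. On day 6 MET had 106, 109 and 94.97 CPM. The MET log2 fold change on day 6 against day 0 was -0.08 (SE 0.07, adjusted p = 0.375). MST1R, its close relative that binds MST1, had 3.00, 2.04 and 2.44 CPM on day 0 and 4.06, 4.18 and 4.04 CPM on day 3. On day 6 MST1R had 4.81, 4.74 and 5.17 CPM. MST1R rose to levels above every day 0 library by day 3 and stayed above them (log2 fold change 0.96, SE 0.16, adjusted p = 0.000292 for day 6 against day 0). HGF, the ligand of MET, had no count in any library, and MST1 averaged 4.75 CPM on day 0, 9.23 CPM on day 3 and 9.76 CPM on day 6 and rose on day 6 against day 0 (adjusted p = 0.000107). HGF and MST1 were picked as these receptors' ligands after the values had been seen.

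KIT, PDGFRA, PDGFRB and FLT3 form the class of receptors for stem cell factor, platelet-derived growth factors and FLT3 ligand. KIT (chr4:54657918-54740715, plus strand) had 214, 235 and 229 CPM on day 0 and 241, 233 and 235 CPM on day 3. On day 6 KIT had 273, 295 and 255 CPM. The day 6 libraries lay above the others by a small margin (1.21-fold, adjusted p = 0.0078 against day 0). KIT had the highest level per kilobase of all 52 members on every day, 49.3 ± 3.61 CPM per kilobase on day 6, 42.5 ± 0.698 on day 3 and 40.6 ± 1.89 on day 0 (SD, n = 3). FLT3, known from blood progenitors, had 0.163, 0.298 and 0.235 CPM on day 0 and 0.447, 0.469 and 0.783 CPM on day 3. On day 6 FLT3 had 1.98, 2.76 and 1.81 CPM. The FLT3 log2 fold change on day 6 against day 0 was 3.23 (SE 0.35, adjusted p = 1.23e-05). No FLT3 library of a later day overlapped with an earlier one. Its day 3 call (adjusted p = 0.024) had a range of 0.0191 to 0.0971 over 15 alternative settings, and was lost without day 0 replicate 1 (0.0903) or day 3 replicate 3 (0.0971). PDGFRA had 57.4, 54.5 and 58.6 CPM on day 0 and 73.0, 79.1 and 73.2 CPM on day 3. On day 6 PDGFRA had 65.4, 69.1 and 61.5 CPM. Day 3 was its highest day, and no days overlapped. The day 3 call stood under every alternative (log2 fold change 0.40, SE 0.07, adjusted p = 0.00129). The day 6 call against day 0 did not: its adjusted p of 0.0364 had a range of 0.00634 to 0.131 over 16 alternative settings and was lost in 10 of them, among them those without day 0 replicate 1 (0.0708) or 3 (0.0541), without day 3 replicate 1 (0.0591), 2 (0.056) or 3 (0.0687), without day 6 replicate 1 (0.0966) or 2 (0.115), and with the replicate block (0.0505). Exons of AC058822.1 on the same strand overlap 15.8% of the PDGFRA exon bases. PDGFRB, the main receptor of pericytes, stayed under 1 CPM but passed on both later days, with pooled counts of 16 on day 0, 55 on day 3 and 56 on day 6 and a day 6 to day 0 ratio of 3.47, 95% interval 1.96 to 6.47 (adjusted p = 0.00181).

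**Figure D3:**
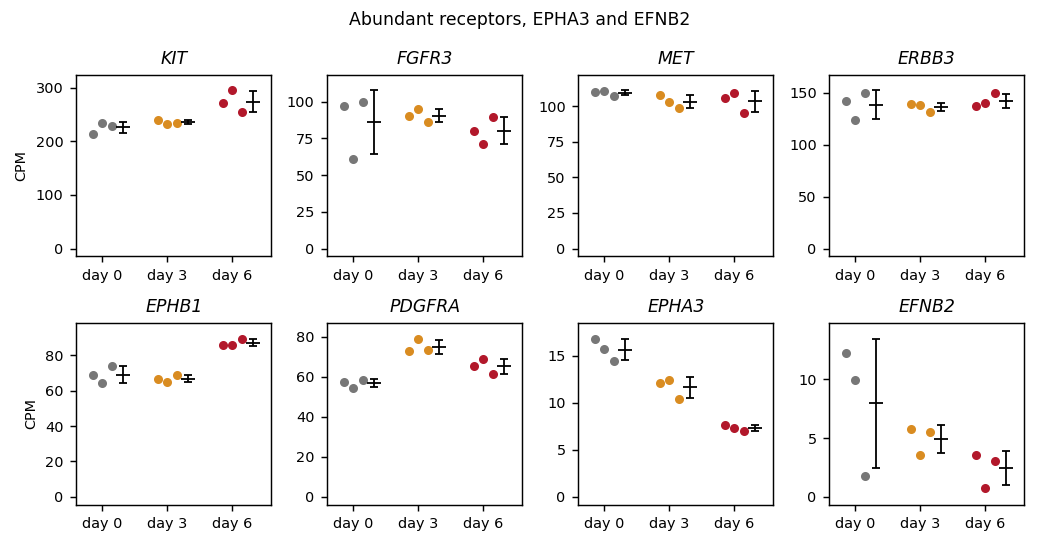
Level in CPM (y axis, linear, own scale per gene) in each of the 3 libraries of day 0, day 3 and day 6, with mean and SD, for 6 abundant receptors and for EPHA3 and EFNB2. MET and ERBB3 overlap between days, EPHA3 falls in 2 steps without overlap, and the day 0 libraries of EFNB2 spread from 1.74 to 12.2 CPM.

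Receptors of endothelium were mixed. FLT4, the VEGF-C receptor of lymphatic vessels, had 13.8, 12.9 and 12.4 CPM on day 0 and 14.99, 14.3 and 14.5 CPM on day 3. On day 6 FLT4 had 15.5, 12.7 and 16.4 CPM and passed in no comparison (adjusted p = 0.144 on day 6 against day 0, 0.0241 to 0.472 over 16 alternative settings, and 0.0241 without day 6 replicate 2). FLT1 and KDR, the VEGF-A receptors, had too few counts to be tested, with 15 on day 0, 18 on day 3 and 26 on day 6 pooled counts of FLT1 and 1 pooled count of KDR on each day. TEK, the angiopoietin receptor, had 1.76, 2.595 and 1.83 CPM on day 0 and 3.80, 3.48 and 3.83 CPM on day 3. On day 6 TEK had 7.57, 10.3 and 10.3 CPM, without overlap between days (log2 fold change 2.19, SE 0.18, adjusted p = 1.4e-06 on day 6 against day 0). TIE1, its partner, had pooled counts of 5 on day 0, 4 on day 3 and 4 on day 6 and was not tested. Endothelial marker genes were low beside this: 2 of the 3 tested out of 6 listed (VWF and ESAM) rose, the list summed to 4.07 to 5.73 CPM in day 6 libraries and 3.04 to 4.44 CPM in day 3 libraries, against 1.36 to 2 CPM in day 0 libraries, CLDN5 had no count in any library, and CDH5 had at most 1 count in a library.

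The TAM receptors bind GAS6 and protein S and take part in the clearance of dying cells. MERTK had 0.359, 0.425 and 0.423 CPM on day 0 and 1.45, 1.17 and 1.09 CPM on day 3. On day 6 MERTK had 2.72, 2.67 and 2.63 CPM, with a tight day 6 group well above the rest (log2 fold change 2.73, SE 0.23, adjusted p = 1.76e-06 against day 0). TYRO3 had 9.34, 8.59 and 11.3 CPM on day 0 and 14.7, 15.5 and 15.8 CPM on day 3. On day 6 TYRO3 had 16.8, 15.5 and 17.7 CPM. Its later libraries lay above those of day 0 and overlapped with each other (log2 fold change 0.78, SE 0.11, adjusted p = 9.02e-05 for day 6 against day 0). AXL was scarce, with pooled counts of 9 on day 0, 18 on day 3 and 40 on day 6 and a day 6 to day 0 ratio of 4.4, 95% interval 2.1 to 10.3. Its day 6 call against day 0 (adjusted p = 0.016, 0.00135 to 0.0512 over 15 alternative settings) was lost without day 6 replicate 2 (0.0512), and its day 3 value (adjusted p = 0.352, 0.0271 to 0.737 over 14 alternative settings) passed without day 0 replicate 1 (0.0271).

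Among the collagen receptors, DDR1, the epithelial one, had 69.9, 63.5 and 71.7 CPM on day 0 and 103, 98.1 and 97.2 CPM on day 3. On day 6 DDR1 had 122, 125 and 145 CPM. It took 2 steps up without overlap (log2 fold change 0.93, SE 0.08, adjusted p = 2.71e-06 on day 6 against day 0). DDR2, which is typical of mesenchymal cells, stayed between 0.510 and 1.59 CPM over the 9 libraries and passed in no comparison. PTK7, a catalytically inactive receptor with a part in WNT and planar polarity signalling, had 47.7, 39.8 and 45.8 CPM on day 0 and 63.7, 64.7 and 62.0 CPM on day 3. On day 6 PTK7 had 69.0, 67.5 and 76.8 CPM. The PTK7 log2 fold change on day 6 against day 0 was 0.68 (SE 0.08, adjusted p = 3.87e-05). Its later libraries all lay above those of day 0.

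NGFR (chr17:49495293-49515017, plus strand) had no count on day 0, and 0.634, 0.402 and 0.435 CPM in the day 3 libraries and 2.56, 2.80 and 3.83 CPM in the day 6 libraries. Pooled counts were 0 on day 0, 39 on day 3 and 230 on day 6. Set against a floor of 3 counts over the day 0 group, NGFR was at least 75.9-fold higher on day 6 and at least 12.3-fold higher on day 3. Day 6 also stood above day 3, by a pooled ratio of 6.17, 95% interval 4.38 to 8.9. The adjusted p was 1.31e-06 on day 6 against day 0, 0.000267 on day 3 against day 0 and 0.000199 on day 6 against day 3. Of the annotated NGFR exon bases 27.1% overlap AC015656.1 and AC006487.1 on the other strand, and reads of the 2 strands cannot be told apart because the use of strand in counting is not stated. NTRK3, the receptor of neurotrophin-3, had 0.751, 0.468 and 0.470 CPM on day 0 and 0.783, 0.837 and 0.478 CPM on day 3. On day 6 NTRK3 had 1.92, 1.77 and 2.20 CPM. Only day 6 stood apart (log2 fold change 1.76, SE 0.29, adjusted p = 0.000281 against day 0). NTRK2, the BDNF receptor, was not tested, with pooled counts of 0 on day 0, 6 on day 3 and 14 on day 6, at least 4.62-fold higher on day 6 than day 0. Markers of Schwann cells and the neural crest moved beside these receptors. Of 6 listed 3 were tested, and all 3 rose on day 6 against day 0. The list summed to 18.4 to 22.2 CPM in day 6 libraries and 6.22 to 6.32 CPM in day 3 libraries, against 3.28 to 3.57 CPM in day 0 libraries. Genes other than MITF and FOXD3 held most of the day 6 sum. MITF averaged 1.08 CPM on day 0, 3.25 CPM on day 3 and 3.90 CPM on day 6, and FOXD3 averaged 1.56 CPM on day 0, 2.29 CPM on day 3 and 3.32 CPM on day 6. Both rose on day 6 against day 0 (adjusted p = 5.85e-05 and 0.000625), while the defining marker SOX10 had at most 1 count in a library. Their part in the receptor values was not tested. RET, the receptor of the GDNF family, had pooled counts of 0 on day 0, 2 on day 3 and 11 on day 6, at least 3.63-fold higher on day 6 than day 0. ALK had 7 on day 0, 15 on day 3 and 15 on day 6, and neither was tested. LTK, the relative of ALK, had 0.163, 0.340 and 0.282 CPM on day 0 and 0.410, 0.234 and 0.522 CPM on day 3. On day 6 LTK had 0.336, 0.474 and 0.301 CPM, with overlap between all days (adjusted p = 0.347 on day 6 against day 0).

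Of the 8 EPHA receptors listed, 7 were tested, 6 rose on day 6 against day 0 and EPHA3 fell. EPHA8 (chr1:22563564-22603594, plus strand), known from the developing midbrain of mice, had no count on day 0, 0.149, 0.0669 and 0.217 CPM on day 3 and 1.28, 1.03 and 0.775 CPM on day 6. Its pooled counts were 0 on day 0, 11 on day 3 and 80 on day 6, at least 26.4-fold higher on day 6 and at least 3.47-fold higher on day 3 than the floor of day 0. All day 6 libraries lay above all day 3 libraries (adjusted p = 0.00168). EPHA2, the main EPHA receptor of many epithelia and carcinomas, had 1.80, 1.70 and 2.26 CPM on day 0 and 5.07, 5.42 and 5.26 CPM on day 3. On day 6 EPHA2 had 7.33, 8.10 and 8.27 CPM. The EPHA2 log2 fold change on day 6 against day 0 was 2.05 (SE 0.14, adjusted p = 2.84e-07). EPHA1 had 6.70, 5.15 and 6.54 CPM on day 0 and 13.0, 12.3 and 11.6 CPM on day 3. On day 6 EPHA1 had 14.6, 14.5 and 15.6 CPM. The EPHA1 log2 fold change on day 6 against day 0 was 1.28 (SE 0.11, adjusted p = 2.3e-06). Both separated all later libraries from day 0, most of the step being there by day 3. EPHA7 had 0.163, 0.340 and 0.141 CPM on day 0 and 1.23, 0.770 and 0.913 CPM on day 3. On day 6 EPHA7 had 1.65, 2.46 and 1.33 CPM. The EPHA7 log2 fold change on day 6 against day 0 was 3.06 (SE 0.40, adjusted p = 4.96e-05). EPHA4, which binds ephrins of both types, had 4.31, 4.64 and 4.70 CPM on day 0 and 4.47, 5.55 and 4.61 CPM on day 3. On day 6 EPHA4 had 6.46, 6.08 and 6.59 CPM, with a smaller difference seen on day 6 only (log2 fold change 0.49, SE 0.13, adjusted p = 0.00589). EPHA10, whose kinase is predicted to be inactive, was scarce, with pooled counts of 5 on day 0, 20 on day 3 and 38 on day 6 and a day 6 to day 0 ratio of 7.52, 95% interval 2.96 to 24.5 (adjusted p = 0.00233). On day 3 EPHA10 did not pass (adjusted p = 0.0506, 0.0454 to 0.162 over 13 alternative settings, and 0.0454 without day 3 replicate 3). EPHA5 had 1 count in all 9 libraries. EPHA3 (chr3:89107524-89482134, plus strand), the EPHA receptor with the highest day 0 level per kilobase, had 16.8, 15.8 and 14.5 CPM on day 0 and 12.2, 12.4 and 10.4 CPM on day 3. On day 6 EPHA3 had 7.70, 7.28 and 7.06 CPM. It fell in 2 steps with no overlap between days, reaching 0.469 of the initial level by day 6 (log2 fold change -1.09 with SE 0.10, adjusted p = 4.36e-06), and the day 3 and day 6 calls stood under every alternative tried.

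The EPHB receptors bind the transmembrane ephrins, and all 5 rose on day 6 against day 0. EPHB1, the most abundant of them per kilobase on day 0 and day 6 (EPHB4 was on day 3), had 68.9, 64.3 and 73.9 CPM on day 0 and 66.7, 64.8 and 68.8 CPM on day 3. On day 6 EPHB1 had 86.1, 85.9 and 89.5 CPM. Day 3 overlapped with day 0 and day 6 lay above both (log2 fold change 0.34, SE 0.07, adjusted p = 0.00187 against day 0). EPHB2 had 13.9, 11.3 and 15.7 CPM on day 0 and 35.7, 36.6 and 33.8 CPM on day 3. On day 6 EPHB2 had 37.4, 36.1 and 37.5 CPM. EPHB3 had 20.7, 16.7 and 19.1 CPM on day 0 and 31.3, 28.6 and 31.6 CPM on day 3. On day 6 EPHB3 had 24.7, 26.4 and 31.5 CPM. EPHB2 and EPHB3, which position cells along intestinal crypts in mice, took their whole step by day 3 (log2 fold changes 1.38 and 0.69, adjusted p = 2.9e-06 and 0.000515), and day 6 overlapped with day 3. EPHB4, the partner of EFNB2 in blood vessels, had 56.0, 45.8 and 54.4 CPM on day 0 and 71.4, 73.8 and 75.3 CPM on day 3. On day 6 EPHB4 had 68.4, 65.2 and 76.0 CPM, with all later libraries above those of day 0 (log2 fold change 0.50, SE 0.09, adjusted p = 0.00124 on day 3 against day 0). EPHB6 (chr7:142855061-142871094, plus strand), an Eph receptor without kinase activity, had 0, 0 and 0.0940 CPM on day 0 and 0.298, 0.167 and 0.261 CPM on day 3. On day 6 EPHB6 had 1.34, 1.03 and 1.12 CPM. Its pooled counts were 2 on day 0, 19 on day 3 and 90 on day 6, a day 6 to day 0 ratio of 44.6, 95% interval 12 to 373 (adjusted p = 2.8e-05), and no 2 days overlapped.

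Of the 5 A-type ephrins, 3 rose on day 6 against day 0. EFNA2 had 1.14, 1.19 and 1.46 CPM on day 0 and 2.87, 3.11 and 3.52 CPM on day 3. On day 6 EFNA2 had 3.33, 3.88 and 3.83 CPM, above day 0 from day 3 on (log2 fold change 1.55, SE 0.18, adjusted p = 2.05e-05 on day 6). EFNA3 had 14.9, 25.5 and 16.6 CPM on day 0 and 24.6, 25.3 and 25.8 CPM on day 3. On day 6 EFNA3 had 28.0, 25.3 and 30.4 CPM. EFNA5 had 0.621, 1.19 and 1.32 CPM on day 0 and 0.746, 1.51 and 1.39 CPM on day 3. On day 6 EFNA5 had 2.19, 1.81 and 2.41 CPM. The EFNA3 libraries of day 6 and day 0 overlapped, and those of EFNA5 did not. The day 6 call of EFNA3 against day 0 (adjusted p = 0.012, 3.61e-06 to 0.0626 over 16 alternative settings) was lost without day 6 replicate 3 (0.0626). That of EFNA5 (adjusted p = 0.0146, 0.00679 to 0.0588 over 15 alternative settings) was lost without day 0 replicate 1 (0.0588) or day 6 replicate 3 (0.0586). EFNA4 had 10.8, 16.4 and 12.1 CPM on day 0 and 16.7, 16.7 and 14.7 CPM on day 3. On day 6 EFNA4 had 14.5, 13.4 and 16.1 CPM. EFNA1, a ligand of EPHA2, averaged 22.6 CPM on day 0, 22.8 CPM on day 3 and 25.9 CPM on day 6. Neither passed (adjusted p on day 6 against day 0 0.352 for EFNA4, 0.0103 to 0.858 over 16 alternative settings, and 0.0569 for EFNA1, 0.00517 to 0.204 over 16 alternative settings). Day 0 replicate 2 was the high library of its day for EFNA3 and EFNA4, and without it EFNA1 and EFNA4 were higher on day 6 than day 0 (adjusted p = 0.0183 and 0.0103) and EFNA3 and EFNA4 were higher on day 3 than day 0 (adjusted p = 5.15e-05 and 0.00186). EFNA3 and EFNA4 share 44.7% and 15% of their exon bases with AL691442.1 on the same strand, so kallisto's split of reads between them is uncertain, although AL691442.1 itself had only 2 to 30 counts in a library.

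The 3 B-type ephrins moved apart. EFNB1 had 5.19, 4.04 and 5.22 CPM on day 0 and 6.71, 7.20 and 7.18 CPM on day 3. On day 6 EFNB1 had 11.1, 9.57 and 12.1 CPM. The EFNB1 log2 fold change on day 6 against day 0 was 1.18 (SE 0.13, adjusted p = 1.53e-05). EFNB3 had 5.81, 6.38 and 6.07 CPM on day 0 and 12.4, 11.8 and 13.1 CPM on day 3. On day 6 EFNB3 had 16.6, 14.5 and 19.0 CPM. The EFNB3 log2 fold change on day 6 against day 0 was 1.46 (SE 0.11, adjusted p = 8.8e-07). Both stepped up on each day without overlap. The second step of EFNB3 (adjusted p = 0.018, 0.00523 to 0.0929 over 16 alternative settings) was lost without day 3 replicate 1 (0.0659) or 2 (0.0929) or day 6 replicate 1 (0.0592) or 3 (0.0864). EFNB2 (chr13:106489731-106535662, minus strand), the ephrin of arteries, had 12.2, 9.91 and 1.74 CPM on day 0 and 5.74, 3.58 and 5.48 CPM on day 3. On day 6 EFNB2 had 3.53, 0.776 and 3.02 CPM. The day 0 libraries themselves spread widely, day 0 replicate 3 lay below 2 of the day 6 libraries, and the groups overlapped (log2 fold change -1.70, SE 0.58, adjusted p = 0.0255 on day 6 against day 0). The call had a range of 0.000673 to 0.104 over 16 alternative settings and was lost with DESeq2 (0.054) and without day 0 replicate 1 (0.104), day 6 replicate 2 (0.0975) or day 6 replicate 3 (0.0592). On day 3 against day 0 it passed only without day 0 replicate 3 (0.0241, against 0.313 with all libraries, 0.0241 to 0.748 over 16 alternative settings), and 26.2% of its exon bases overlap AL138689.2 on the other strand.

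Levels of different genes were set side by side per kilobase of annotated exon (GENCODE release 29). After KIT, the day 0 order was FGFR3 at 17.7 ± 4.49, MET at 15.5 ± 0.246 and ERBB3 at 15.3 ± 1.52 CPM per kilobase (SD, n = 3), 3 neighbours that did not differ beyond their spread. EFNA4, EFNA3, EPHB1, EFNA1, EPHB4 and DDR1 followed, between 10.4 ± 2.30 for EFNA4 and 7.50 ± 0.474 for DDR1. On day 6 KIT, FGFR3, ERBB3 and MET still led, and EFNA3 and DDR1 came next at 14.6 ± 1.35 and 14.3 ± 1.35. KIT stood apart from FGFR3 at 16.6 ± 1.90, and among the 5 genes after KIT no neighbours in the order differed beyond their spread. The genes with the widest fold changes stayed low in this order, with NGFR at 0.738 ± 0.163, EGFR at 0.359 ± 0.0993, EPHB6 at 0.219 ± 0.0302 and EPHA8 at 0.192 ± 0.0469 CPM per kilobase on day 6. With the longest transcript as the length KIT still led, and the order among the next genes changed.

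**Figure D4:**
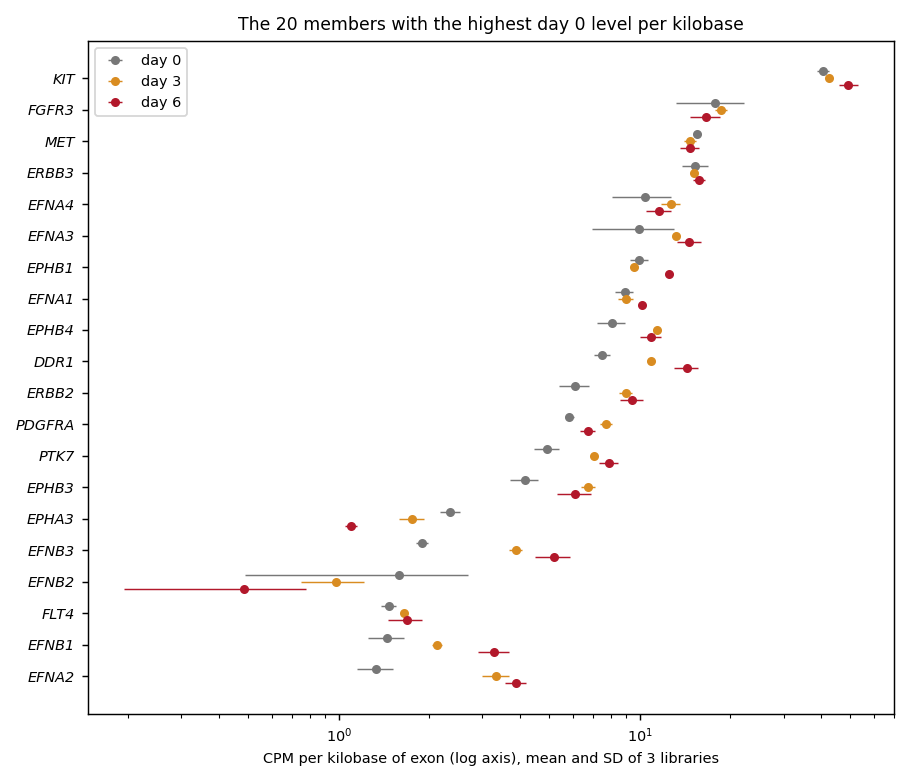
Level in CPM per kilobase of exon (x axis, log scale) of the 20 members with the highest day 0 mean, as mean and SD of 3 libraries on day 0, day 3 and day 6. KIT leads on each day at 40.6 to 49.3 CPM per kilobase, and EPHA3 and EFNB2 are the genes whose day 6 mean lies furthest below day 0.

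Some of these genes lie near each other on their chromosomes. PDGFRA, KIT and KDR lie in that order on chromosome 4, and their mean levels on day 6 were 65.3, 274 and 0.0144 CPM, against 56.9, 226 and 0.0157 CPM on day 0. EPHA8 lies near EPHB2 on chromosome 1, EPHB6 and EPHA1 are near each other on chromosome 7, and FLT3 and FLT1 on chromosome 13. In the first 2 of these pairs both genes rose by day 6, and in the last FLT3 rose and FLT1 had too few counts to be tested. EFNA4, EFNA3 and EFNA1 stand in a row on chromosome 1, where with all libraries EFNA3 alone passed on day 6 against day 0. This contrast depended on single libraries. Without day 0 replicate 2 EFNA1 and EFNA4 also passed (adjusted p = 0.0183 and 0.0103), and without day 6 replicate 3 EFNA3 did not (0.0626).

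Promoter windows of RefSeq (GRCh38.p14, from 250 bases before to 50 bases after the start) matched 46 of the 52 members by symbol (not matched were ERBB3, FGFR1, FLT4, NGFR, EPHA10 and EFNB3). The member windows held a median of 25.5 CG dinucleotides, and the 31 windows of members that rose by day 6 a median of 26, against 14 over all 27305 promoters. The 2 members that fell had a median of 33, the 6 tested without a call had 24 and the 7 not tested 22. A ratio of observed to expected CG of at least 0.6 was reached by 76.1% of the members' windows and 77.4% of those that rose, against 49% of all promoters. Both members that fell reached it, as did 4 of the 6 without a call and 5 of the 7 not tested. CG was counted on the gene's own strand, where each one also reads CG on the other strand. The bases before the start are given for EGFR and EPHA8, nearly silent or silent on day 0, for PDGFRB, a riser with a low CG count, and for EPHA3, the member that fell under every alternative, with each CG in capitals. The EGFR bases are chr7:55018767-55019016 (plus strand, 25 CG in 250 bases) and those of EPHA8 chr1:22563239-22563488 (plus strand, 42 CG in 250). Those of PDGFRB are chr5:150155873-150156095 (minus strand, 9 CG in 223) and those of EPHA3 chr3:89107371-89107523 (plus strand, 7 CG in 153). For PDGFRB and EPHA3, bases that GENCODE 29 places inside the gene were left out, which shortens the stretch. For EPHA8 the RefSeq start lies before the GENCODE gene start at 22563564, and the bases after the RefSeq start were found in no GENCODE transcript of the gene.
EGFR: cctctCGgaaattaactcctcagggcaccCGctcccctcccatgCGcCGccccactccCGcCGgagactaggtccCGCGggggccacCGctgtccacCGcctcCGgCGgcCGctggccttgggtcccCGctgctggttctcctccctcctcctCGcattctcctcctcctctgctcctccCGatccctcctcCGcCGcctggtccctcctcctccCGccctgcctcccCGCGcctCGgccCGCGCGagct
EPHA8: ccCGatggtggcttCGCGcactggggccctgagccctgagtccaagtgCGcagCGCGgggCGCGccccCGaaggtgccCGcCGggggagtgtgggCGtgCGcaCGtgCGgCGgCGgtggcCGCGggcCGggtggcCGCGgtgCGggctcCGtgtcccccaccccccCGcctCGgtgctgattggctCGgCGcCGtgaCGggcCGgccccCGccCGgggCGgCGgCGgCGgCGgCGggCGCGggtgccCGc
PDGFRB: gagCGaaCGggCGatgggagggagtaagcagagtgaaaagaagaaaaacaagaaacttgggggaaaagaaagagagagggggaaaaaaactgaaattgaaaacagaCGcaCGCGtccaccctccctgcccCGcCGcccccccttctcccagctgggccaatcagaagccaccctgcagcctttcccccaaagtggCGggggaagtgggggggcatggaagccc
EPHA3: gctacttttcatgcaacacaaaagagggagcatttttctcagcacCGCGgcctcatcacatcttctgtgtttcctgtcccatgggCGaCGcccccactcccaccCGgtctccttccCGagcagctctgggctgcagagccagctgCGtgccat
The EGFR and EPHA8 stretches have CG spread along their length, while PDGFRB rose with few. These do not stand for all members that were nearly silent on day 0. In the whole window of 300 bases EGFR had 33 CG, EPHA8 51, ERBB4 19 and EPHB6 only 3, and NGFR was not matched. The counts describe these letters only.

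Of 63 ligand genes of these receptors, 34 were tested, and 19 rose and 2 fell on day 6 against day 0, with a median log2 fold change of 0.73. Beside this, 28.9% of all genes tested rose and 25.7% fell. TGFA, which encodes the EGFR ligand TGF-alpha, averaged 0.259 CPM on day 0, 1.76 CPM on day 3 and 7.66 CPM on day 6. Its last libraries stood highest (log2 fold change 4.89, SE 0.22, adjusted p = 1.12e-08 for day 6 against day 0). PDGFB averaged 5.31 CPM on day 0, 16.4 CPM on day 3 and 24.0 CPM on day 6, and PDGFA averaged 9.22 CPM on day 0, 21.8 CPM on day 3 and 35.7 CPM on day 6. MDK, the midkine gene, averaged 16.9 CPM on day 0, 40.0 CPM on day 3 and 40.2 CPM on day 6. All 4 passed on day 3 and on day 6 against day 0, and their log2 fold changes on day 6 were 2.18 for PDGFB, 1.96 for PDGFA and 1.25 for MDK (adjusted p = 5.64e-08, 1.9e-07 and 4.55e-06). The ligands of KIT and of NTRK3 did not pass: KITLG averaged 2.99 CPM on day 0, 2.96 CPM on day 3 and 3.06 CPM on day 6, and NTF3 averaged 6.91 CPM on day 0, 6.89 CPM on day 3 and 6.91 CPM on day 6 (adjusted p = 0.872 and 0.978 on day 6 against day 0). GAS6, the ligand of the TAM receptors, had pooled counts of 0 on day 0, 23 on day 3 and 144 on day 6, at least 47.5-fold higher on day 6 than the floor of day 0 (adjusted p = 2.35e-05). KITLG, NTF3 and GAS6 were chosen after their values were seen. Of the ligand genes in the table, 5 had no count in any library.

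Among 19 co-receptor genes 10 were tested, 5 rose and 2 fell on day 6 against day 0, or 1 fell with scaling by library size alone. Over all genes tested 28.9% rose and 25.7% fell in that comparison. FGFRL1, an FGF receptor relative without a kinase, averaged 20.02 CPM on day 0, 40.3 CPM on day 3 and 45.1 CPM on day 6, and NRP2, the neuropilin that binds VEGF-C, averaged 1.13 CPM on day 0, 3.16 CPM on day 3 and 4.63 CPM on day 6 (log2 fold changes 1.17 and 2.01, adjusted p = 4.67e-07 and 4.55e-06). SORL1 averaged 15.4 CPM on day 0, 21.7 CPM on day 3 and 39.4 CPM on day 6 and MAGED1, which binds the inside of NGFR, averaged 81.9 CPM on day 0, 131 CPM on day 3 and 136 CPM on day 6. Both rose on day 6 against day 0 (adjusted p = 7.01e-06 and 1.36e-05). SORT1, the sortilin that pairs with NGFR for pro-neurotrophins, was chosen after its values were seen: it averaged 153 CPM on day 0, 135 CPM on day 3 and 122 CPM on day 6 and fell by day 6 (log2 fold change -0.32, SE 0.07, adjusted p = 0.00232 against day 0). Of the 15 receptor tyrosine kinases outside the 52, 8 were tested, and on day 6 against day 0 AATK rose and RYK, a WNT-binding receptor, fell (adjusted p = 0.0448, 0.0174 to 0.142 over 16 alternative settings, and 0.0166, 0.00445 to 0.134 over 16 alternative settings). Both calls were lost without day 6 replicate 3 (0.142 for AATK and 0.0515 for RYK), and that of AATK also without day 0 replicate 2 (0.0592), any day 3 library or any other day 6 library.

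The feedback inhibitors and ligases of the pathway, 26 genes and all tested, held 14 that rose and 4 that fell on day 6 against day 0, or 1 that fell with scaling by library size alone (median log2 fold change 0.34). The shares over all genes tested were 28.9% that rose and 25.7% that fell. DUSP4 and DUSP6, phosphatases that switch MAP kinases off, averaged 29.1 CPM on day 0, 43.7 CPM on day 3 and 99.0 CPM on day 6 for DUSP4, and 3.35 CPM on day 0, 4.44 CPM on day 3 and 20.2 CPM on day 6 for DUSP6. DUSP6 took its step after day 3 (adjusted p = 0.113 on day 3 against day 0 and 2.58e-07 on day 6 against day 0), though without day 0 replicate 2 the day 3 value also passed (0.00982, 0.00982 to 0.346 over 16 alternative settings). LRIG1, which promotes the breakdown of ERBB receptors, averaged 4.35 CPM on day 0, 7.71 CPM on day 3 and 12.8 CPM on day 6, and SPRY2 averaged 3.34 CPM on day 0, 4.70 CPM on day 3 and 9.12 CPM on day 6 (log2 fold changes 1.56 and 1.45 on day 6 against day 0, adjusted p = 3.85e-07 and 2.95e-06). Of 13 genes known as transcriptional outputs of MAPK signalling, 10 rose on day 3 against day 0 and 13 on day 6 against day 0, with a median log2 fold change of 2.05 on day 6. Of all genes tested, 22.5% rose on day 3 and 28.9% on day 6 against day 0. The list holds EPHA2 and EPHA4 and shares 6 genes with the feedback list, so the counts are not independent of each other. ETV4 averaged 5.81 CPM on day 0, 15.1 CPM on day 3 and 24.7 CPM on day 6, PHLDA1 averaged 7.47 CPM on day 0, 11.2 CPM on day 3 and 31.6 CPM on day 6, and CCND1, the cyclin D1 gene, averaged 29.2 CPM on day 0, 40.7 CPM on day 3 and 66.8 CPM on day 6 (log2 fold changes 2.09, 2.08 and 1.19).

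**Figure D5:**
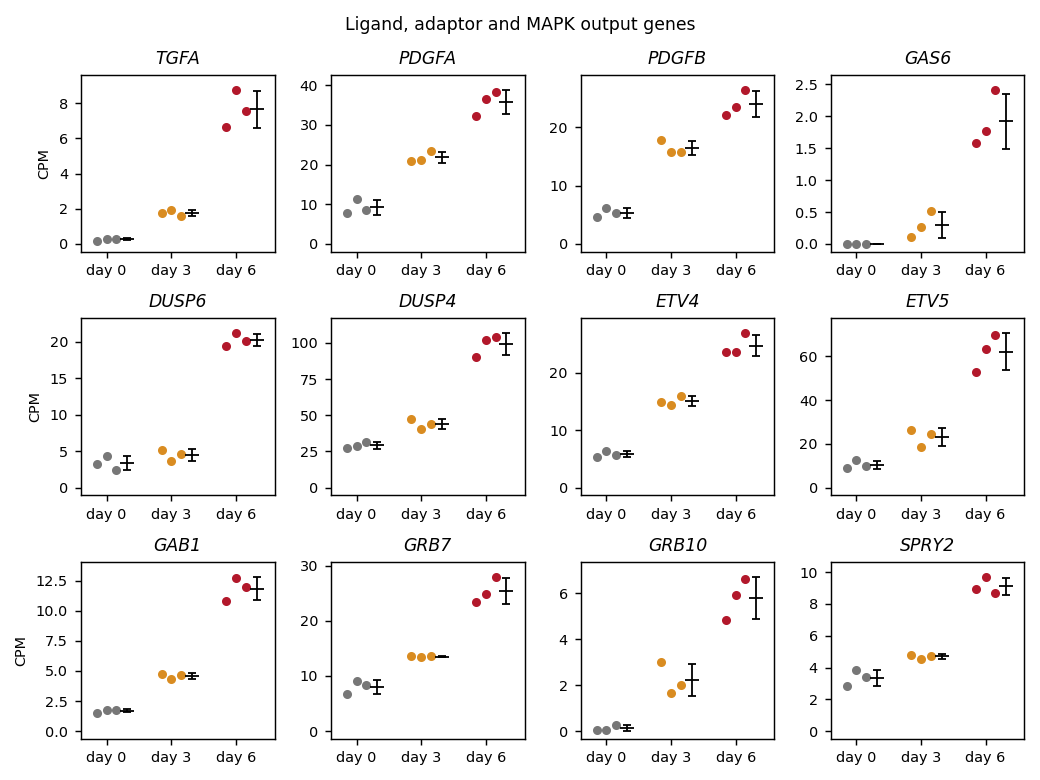
Level in CPM (y axis, linear, own scale per gene) in each of the 3 libraries of day 0, day 3 and day 6, with mean and SD, for 4 ligands (TGFA, PDGFA, PDGFB and GAS6), 3 adaptors (GAB1, GRB7 and GRB10) and 5 MAPK feedback or output genes. In every panel the 3 day 6 libraries lie above all day 3 and day 0 libraries, and DUSP6 shows most of its step between day 3 and day 6.

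The adaptors and the RAS-MAPK and PI3K core split evenly. Of 38 genes, all tested, 12 rose and 13 fell on day 6 against day 0, with a median log2 fold change of 0.06. Their split was near that of all genes tested, of which 28.9% rose and 25.7% fell. The 4 with the lowest p were all risers. GAB1, a docking protein of EGFR and MET, averaged 1.69 CPM on day 0, 4.58 CPM on day 3 and 11.8 CPM on day 6, and GRB7 averaged 8.03 CPM on day 0, 13.5 CPM on day 3 and 25.4 CPM on day 6. PIK3CD, a PI3K catalytic subunit known from leukocytes, averaged 0.453 CPM on day 0, 2.69 CPM on day 3 and 5.49 CPM on day 6, and GRB10, an adaptor that dampens insulin receptor signalling, averaged 0.130 CPM on day 0, 2.22 CPM on day 3 and 5.78 CPM on day 6. Their log2 fold changes on day 6 against day 0 were 2.81 for GAB1, 1.67 for GRB7, 3.58 for PIK3CD and 5.53 for GRB10. Among those that fell, named after their values were seen, were the phosphatase PTPN11 (adjusted p = 0.00067) and the RAS activator SOS1 (adjusted p = 0.00021).

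The neuroendocrine label was checked against marker genes. ENO2, NCAM1, SYP, INSM1 and NEUROD1 were detected, and CHGA had no count in any library. ENO2 averaged 371 CPM on day 0, 435 CPM on day 3 and 477 CPM on day 6, and SYP averaged 5.85 CPM on day 0, 4.79 CPM on day 3 and 6.07 CPM on day 6. Markers of other cell types moved beside the risers. Fibroblast markers summed to 9.55 to 11.4 CPM in day 6 libraries and 3.81 to 5.22 CPM in day 3 libraries, against 0.681 to 1.31 CPM in day 0 libraries, where 1 of 2 tested of 6 rose on day 6 (COL1A1) and LUM had no count on day 0 or day 3. Squamous basal markers summed to 6.66 to 8.01 CPM in day 6 libraries and 0.803 to 1.87 CPM in day 3 libraries, against 1.32 to 1.66 CPM in day 0 libraries, and the 2 tested of 6 (KRT5 and TP63) rose on day 6 while KRT14 averaged 0.0256 CPM. Leukocyte and mast cell markers summed to 327 to 331 CPM in day 6 libraries and 347 to 363 CPM in day 3 libraries, against 489 to 643 CPM in day 0 libraries, nearly all of it LYZ, which fell. Of the 8 genes in this list 5 were tested, and on day 6 against day 0 LYZ fell and 1 other rose. CPA3, of this list, had no count. The part of these genes' cells in the receptor values was not tested.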

How the data were processed

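RNA was sequenced after poly-A enrichment with TruSeq chemistry, per the labels' protocols. Tools listed in the submitters' processing notes are kallisto 0.44.0, bcl2fastq 2.19 and DESeq2, and the builds are GRCh38, GRCm38 and hg38, all without roles. The authors deposited estimated counts per gene symbol, already whole and not scaled. How transcripts were summed to genes and whether strand was used are not given in the sources used here. The counts were scaled with TMM, filtered with filterByExpr (minimum count 10) and tested in edgeR 4.0.16 (R 4.3.3) by glmQLFTest, all 9 libraries in 1 fit with a mean per day. The rule for named genes gave values per library for NGFR, for members that passed on a later day against day 0 with a day mean of at least 1 CPM, and for the most abundant member of each family, and from each pathway list up to 4 genes of lowest p. The members and lists were chosen with earlier results of these data known. A count of 0 allows up to 3 counts, 0.098 to 0.141 CPM in a library. Coordinates are GENCODE 29 on GRCh38, 1-based. Alternatives were other scalings and filters, DESeq2 1.42.0, a replicate block, fits of 2 days and leaving out each library. Some genes of the pathway and marker lists are not reported here.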

Additional observations from a re-analysis of the deposited data

How the results depend on the processing

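Of 198 results on single genes in the 3 comparisons, 165 kept their side of the threshold under each of the 16 settings that tested the gene. Another 33 changed sides under at least 1, and none that was called reversed. Results without a call could change sign, as MET did on day 6 against day 0 (log2 fold change -0.12 to 0.03). A stricter minimum, 5 CPM in the mean, left 26 members tested: 15 rose on day 3 and 20 on day 6 against day 0, and 9 on day 6 against day 3. Of all genes tested under it, 42.1%, 53.5% and 11.3% were called in these 3 comparisons. Counting only members past the minimum on day 0, an alternative added after seeing the data, gave 17 and 23 that rose on day 3 and on day 6 against day 0. DESeq2 left 1 member that fell on day 6 against day 0, and fits of only the 2 days compared gave 3 that fell on day 6 against day 3. Leaving out 1 library at a time gave 26 to 28 risers and 1 to 2 fallers on day 3 against day 0, 33 to 37 and 1 to 3 on day 6 against day 0, and 14 to 20 and 1 to 2 on day 6 against day 3. The share of all genes called was then 29.8% to 46.7% on day 3 and 46.7% to 60.8% on day 6 against day 0. The cause of these moves was not tested beyond the fewer genes or samples named. Scaling by library size alone moved the median of all genes by 0.09 on day 3 and 0.13 on day 6 against day 0 (log2). Of all genes called, 69.2% were then higher on day 3 and 66.6% on day 6 against day 0, and 78.1% on day 6 against day 3. TMM gave 55.3%, 53% and 70.7%. The share of all genes called on day 6 against day 3, 16.3%, was 28.7% in the fit of those 2 days and 10.3% to 30% with 1 library left out. Replicate numbers are not stated to pair libraries, and same-numbered libraries deviated together with r from -0.16 to 0.23, other pairs with r from -0.27 to 0.25. With the replicate block, 26 members rose and 1 fell on day 3 against day 0, 34 and 2 on day 6 against day 0, and 15 and 1 on day 6 against day 3. The block called 39.8%, 54.1% and 14.9% of all genes tested in these comparisons. Depth limits the 7 untested members, whose ratios rest on at most 26 pooled counts a day.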

Other observations

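FGF23, a hormone of bone that signals through FGF receptors together with the co-receptor KL, had 254, 292 and 302 CPM on day 0 and 316, 329.8 and 253 CPM on day 3. On day 6 FGF23 had 228, 377 and 354 CPM. No difference between days passed (adjusted p = 0.384 on day 6 against day 0 with edgeR). KL, the klotho gene, had 12.5, 12.8 and 13.2 CPM on day 0 and 14.6, 15.03 and 11.6 CPM on day 3. On day 6 KL had 9.18, 9.53 and 8.96 CPM. It fell on day 6 against day 0 (log2 fold change -0.48, SE 0.11, adjusted p = 0.00285), the day 6 libraries lying below the others. FGF1, which binds all FGF receptors, averaged 39.4 CPM on day 0, 38.8 CPM on day 3 and 22.5 CPM on day 6 and also fell (log2 fold change -0.81, SE 0.09, adjusted p = 1.6e-05), while FGF9 averaged 4.34 CPM on day 0, 4.48 CPM on day 3 and 7.53 CPM on day 6 and rose (log2 fold change 0.79, SE 0.12, adjusted p = 0.000162). These genes were chosen after their values were seen.

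Among the receptor tyrosine kinases outside the 52 members, LMTK3 had no count on day 0 and day 3 and 35 counts on day 6, all of them in replicate 3. ROR2, a WNT5A receptor, had pooled counts of 0 on day 0, 6 on day 3 and 29 on day 6, and MUSK, the receptor of the neuromuscular junction, had 0 on day 0, 4 on day 3 and 22 on day 6. None of these 3 had enough counts to be tested, and they were chosen after their values were seen.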
